A study of Mus musculus with 143 samples.

Results

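Total RNA of single germinal vesicle (GV) oocytes that lack Dis3 was compared with that of control GV oocytes. The members are the 16 single-oocyte libraries whose titles mark them as GV and as depleted of ribosomal RNA, 8 control and 8 Dis3 conditional knockout (cKO), of 143 samples in the series. Other libraries of the series used here are poly(A) libraries of GV oocytes, 8 control and 15 Dis3 cKO, and total RNA libraries labelled p20, 8 control and 8 Dis3 cKO. The labels give the stage as GV or p20 and the genotype as control or dis3cKO, and state no strain. They give no age for the GV libraries of RNA, which are called adult here because titles of other assays in the series name adult GV oocytes, and p20 is read as a postnatal age. Mutant mice were made by CRISPR/Cas9 and GV oocytes were dissected from ovaries into M2 medium, per the labels' protocols, which name neither the Cre driver nor the altered Dis3 exons. The titles also carry a tag, AM1758 or AM1759 for controls and AM1713 or AM1757 for Dis3 cKO, with 4 oocytes per tag. The labels do not say what a tag is, so p-values below measure the spread between single oocytes, and any difference between the sources of the tags cannot be told apart from genotype.

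DIS3 is a ribonuclease of the nuclear RNA exosome, which trims and degrades RNA from its 3′ end. Its best known nuclear substrates are short-lived transcripts, among them upstream antisense RNAs from promoters, many long noncoding RNAs (lncRNAs) and the precursors of small nucleolar RNAs (snoRNAs). A fully grown GV oocyte is arrested in meiotic prophase, has largely stopped transcription and lives from a store of maternal mRNA, so its RNA level reflects earlier synthesis and the decay since then.

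Gene counts per library ran from 16104881 to 35429028, and counts of the synthetic ERCC RNAs, a mix of 92 sequences used as an external standard, from 49352 to 192786, with 46 to 60 of them detected. Controls had 12467 to 13264 genes at 1 count per 1000000 gene counts (CPM, unscaled for this number only) or more, and Dis3 cKO oocytes 12970 to 14337. The summed level of 16 oocyte markers was 12772 to 17904 CPM (median 14487) in controls and 11956 to 13895 (median 12656) in Dis3 cKO. Of 19 granulosa and cumulus cell markers, 14 were high enough to test. Their whole list summed to 341 to 434 CPM in controls and 237 to 402 CPM in Dis3 cKO, and Ptx3 and Tnfaip6 were at 0 in all 16 libraries. Most of this sum was Serpine2 (means of 258 CPM in controls and 219 in Dis3 cKO) and Nr5a2 (61.6 and 80.2). Cyp19a1 followed at 22.8 and 18.4. The list of 18 stromal, endothelial and blood cell markers summed to 73.6 to 99.7 CPM in controls and 31.5 to 98.2 CPM in Dis3 cKO, with Hbb-bs, Hbb-bt, Hba-a1 and Hba-a2 at 0 in every library. Most of that sum was Pecam1, with means of 78.8 CPM in controls and 55.3 in Dis3 cKO, and Kdr followed at 4.71 and 6.09. Under library scaling none of the 5 markers tested from that list passed the test (edgeR). Of the 14 granulosa markers tested, Nr5a2 (0.40 on the log2 scale) and Star (1.92) were higher, beside 15.7% of all genes tested. Neither passed with the tag as a block (limma). Under ERCC scaling 1 of the 5 and 6 of the 14 granulosa markers were lower, beside 40.1% of all genes tested. The part of these cell types in the results was not tested. In a principal component analysis of all genes the first component held the 8 controls between -56.1 and -38.4, the 4 AM1757 oocytes between -0.890 and 21.2 and the 4 AM1713 oocytes between 41.2 and 116.

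The targeted gene was examined first. Dis3 (ENSMUSG00000033166, chr14:99076634-99099780 in GRCm38) lay between 8.86 and 21.9 CPM in controls (median 15.7) and between 0.684 and 3.15 CPM in Dis3 cKO (median 1.80). No cKO oocyte reached the lowest control. The 2 control tags differed as well, with means of 20.8 CPM in AM1758 and 10.3 in AM1759. Scaled to the ERCC counts, the fall was 3.77 on the log2 scale (edgeR adjusted p 1.32e-07). Dis3 overlaps the gene Pibf1, and reads from the shared stretch could go to either where strand was not used.

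Dis3 cKO oocytes held less RNA relative to the ERCC standard, and the RNA they held was made up differently. Each oocyte's gene counts divided by its ERCC counts came to 336 to 487 in controls (median 397) and 152 to 360 in Dis3 cKO (median 238), so that 6 of 8 cKO oocytes lay below the lowest control. Means per tag were 414 and 391 in controls and 279 (AM1713) and 242 (AM1757) in cKO. The fold of 0.624 had an exact permutation p of 0.000932 (2-sided, n = 8 each, 12870 regroupings). Less RNA per oocyte and less RNA recovered from it relative to the standard cannot be told apart, and the labels describe the addition of the standard for the poly(A) libraries only.

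The class that gained most was the RNA encoded by the mitochondrial genome. Its share of gene counts was 0.799% to 1.21% in controls (mean 1.02% ± 0.136 SD) and 1.243% to 3.04% in Dis3 cKO (mean 2.21% ± 0.665), a 2.10-fold higher share with no overlap between the groups (exact permutation, adjusted p 0.000414 over 8 RNA classes, n = 8 each). Both cKO tags had like means, 2.19% and 2.22%. It was the one class that passed the test as higher per ERCC count, by 1.31-fold (exact permutation, adjusted p 0.0261, n = 8 each), and 4 of the 16 fits that left out 1 library did not pass (AM1758_3, AM1759_4, AM1713_1 and AM1757_1, adjusted p up to 0.0541).

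Replication-dependent histone mRNAs, which end in a stem-loop in place of a poly(A) tail, made up 0.115% to 0.158% of control counts and 0.153% to 0.382% of cKO counts. The share was higher by 0.66 on the log2 scale (exact permutation, adjusted p 0.000497, n = 8 each), and per ERCC count it was at -0.02 (adjusted p 0.927). Long noncoding RNA made up 1.15% to 1.33% in controls and 1.31% to 1.73% in Dis3 cKO, a log2 difference of 0.22 (exact permutation, adjusted p 0.000497, n = 8 each). The gain in lncRNA share was carried more by AM1713, whose mean was 1.56%, than by AM1757 with 1.35%, against 1.2% and 1.28% in the control tags. Per ERCC count the lncRNA total was lower, by -0.46 (exact permutation, adjusted p 0.0472, n = 8 each), and it did not pass in 13 of the 16 fits that left out 1 library (adjusted p up to 0.0932). Counts in nuclear protein-coding genes fell from a share of 96.6% ± 0.195 to 94.8% ± 0.902, and per ERCC count by 0.71 on the log2 scale (exact permutation, adjusted p 0.00497, n = 8 each). Pseudogenes rose as a share, by 0.38 (adjusted p 0.000414), and small noncoding RNAs stood at 0.45 with an adjusted p of 0.0957 (exact permutation, n = 8 each).

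**Figure D1:**
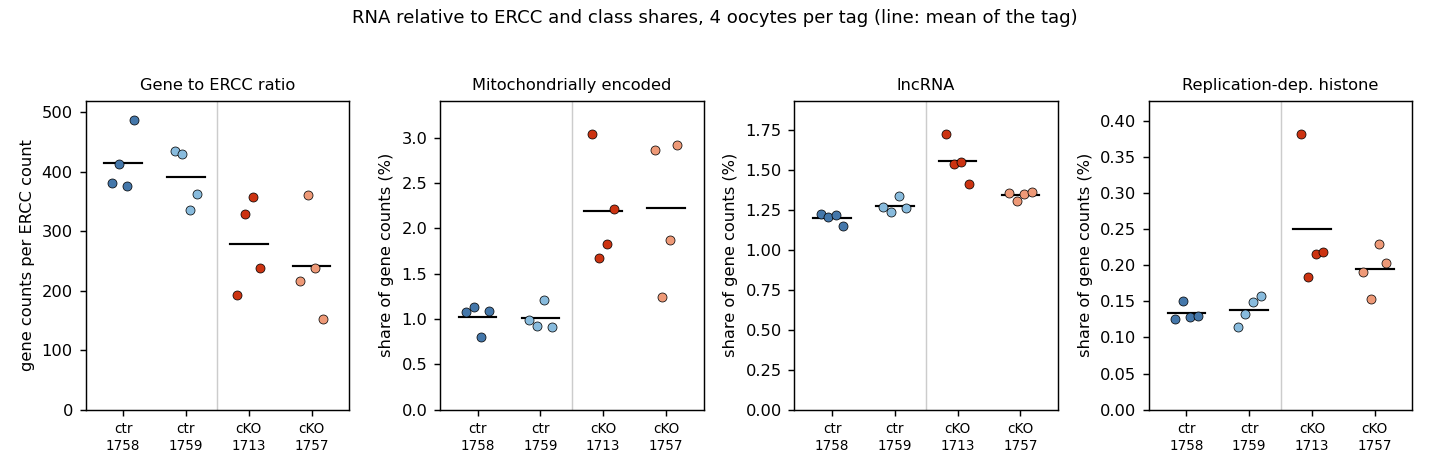
Each point is 1 oocyte, grouped by title tag (blue, control; red, Dis3 cKO), and each line is the mean of a tag: gene counts per ERCC count, and the share of gene counts in percent for mitochondrially encoded, lncRNA and replication-dependent histone genes. All 8 cKO oocytes lie above the highest control in mitochondrial share, 1.21%, and 6 of 8 lie below the lowest control in the ratio.

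Each gene was then tested under library scaling (TMM, each RNA relative to the bulk of the others) and under ERCC scaling (each RNA relative to the standard), over the same 15334 genes. Library scaling called 4305 genes, 28.1% of those tested, of which 2405 were higher in Dis3 cKO (15.7%) and 1900 lower (12.4%). ERCC scaling called 6843 genes, 44.6%, with 699 higher (4.56%) and 6144 lower (40.1%), and shifted the middle of all log2 changes, the median, from 0.03 to -0.52. Single changes below are therefore read against 0.03 under library scaling and against -0.52 under ERCC scaling. Counts of gene list members are read against 15.7% higher and 12.4% lower under library scaling, and 4.56% and 40.1% under ERCC scaling. Every one of the 699 genes higher under ERCC scaling was also higher under library scaling, and all 1900 genes lower under library scaling were also lower under ERCC scaling. Of the others, 1704 were higher under library scaling and not called under ERCC scaling, and 4242 were lower under ERCC scaling and not called under library scaling. Only Rdh11 (0.19 and -0.39) and Hmces (0.18 and -0.40) were called in opposite directions, and each lost its library call in several fits without 1 library. The counts depend on the tags: without the control tag AM1758 library scaling called 2198 genes and ERCC scaling 2436, and without AM1759 they called 2408 and 3553. Without the cKO tag AM1713 library scaling called 1362 genes higher and 1539 lower, so that lower calls outnumbered higher ones, and ERCC scaling 245 and 7286. Without AM1757 the counts were 3108 and 2771, and 1203 and 4531. With the tag as a random block (limma), 1993 genes passed under library scaling, 943 of the higher and 1027 of the lower genes among them. Under ERCC scaling the block gave 383 higher and 6685 lower genes. With counts summed per tag, which leaves 2 samples a group, edgeR called 0 genes under library scaling (2957 at an unadjusted p under 0.05) and 3646 under ERCC scaling, 231 higher and 3415 lower.

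Under library scaling 1148 genes were higher and 327 lower by 2-fold or more, and 475 higher and 63 lower by 4-fold or more. The CPM of the groups did not overlap for 544 genes that were higher (3.55%) and 546 that were lower (3.56%), and per ERCC count for 107 and 1156.

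**Figure D2:**
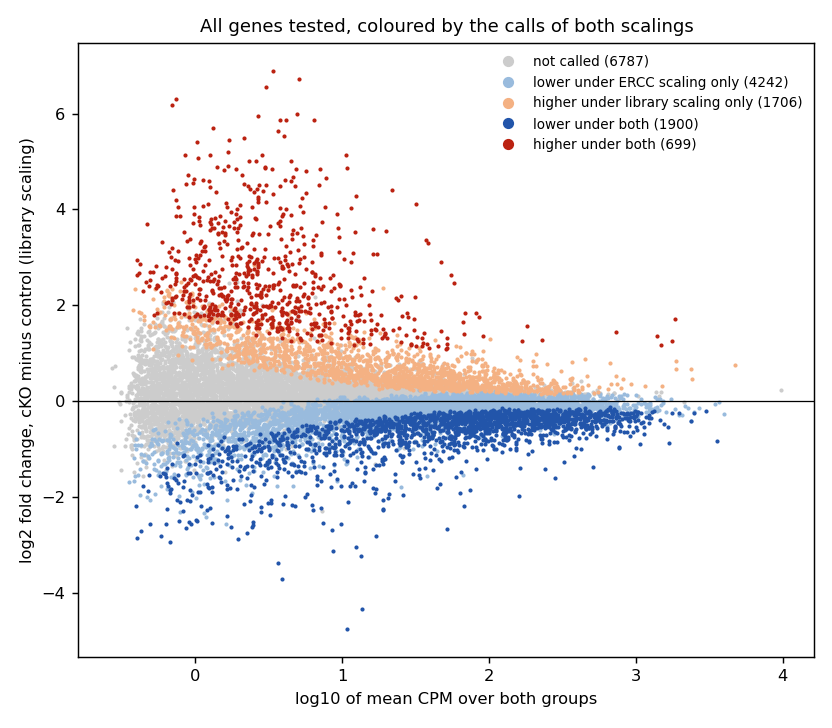
Each point is 1 of the 15334 genes tested, with the log10 of its mean CPM over both groups on the x axis and its log2 fold change under library scaling on the y axis. The 699 genes higher under both scalings are red, the 1900 lower under both are dark blue, and the 1706 genes shown as higher under library scaling only include the 2 that were lower under ERCC scaling.

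The largest changes were sought among genes that passed both scalings, did not overlap between the groups and reached 5 CPM in 1 group, 219 higher and 513 lower. Predicted genes (Gm and Rik symbols) made up 135 of the 219 and 21 of the 513. Btnl2, a butyrophilin-like immune receptor gene, was at 0 to 0.132 CPM in controls and at 2.40 to 9.42 in Dis3 cKO, with like means in both cKO tags (5.64 and 6.44). Its change was 6.56 under library scaling (edgeR adjusted p 2.02e-07, SE 0.547) and 5.92 relative to the standard. Fitted changes of genes so close to 0 in controls depend on the prior count of the fit.

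Mog, a myelin protein of oligodendrocytes, went from 0.118 to 1.58 CPM in controls (median 0.277) to 4.33 to 23.9 in Dis3 cKO (median 9.36), a log2 change of 4.83 (SE 0.535, edgeR adjusted p 4.12e-06). Gimap1 (3.57) and Gimap5 (3.09), neighbouring genes on chromosome 6 for small GTPases of lymphocytes, both rose, and Gimap5 lay at 1.10 to 4.22 CPM in controls and 9.16 to 40.1 in Dis3 cKO. Both were higher in AM1713 than in AM1757, with Gimap5 means of 31.9 and 10.4 CPM. Mamdc2, a gene with MAM domains, stood at 0.597 to 1.45 CPM in controls and 4.35 to 13.3 in Dis3 cKO (2.91, SE 0.298, edgeR adjusted p 1.87e-06), with tag means of 6.09 and 7.19. The remaining named genes that rose were Cpeb1os1 (4.02), an RNA from the strand opposite Cpeb1, Lrtm1 (3.95), Rpl37rt (3.01), a retrotransposed copy of the ribosomal protein gene Rpl37, Wdr38 (2.99), the septin gene Sept1 (2.93) and the pseudogene Fau-ps2 (6.0). Fau-ps2 and Wdr38 did not pass with the tag as a block (limma adjusted p 0.150 and 0.0654), and copies such as Fau-ps2 and Rpl37rt may share reads with their parent genes. The predicted genes with the largest gains were 1700019L13Rik (6.90), Gm5129 (5.96), Gm16244 (5.87) and Gm16098 (5.86). Gm16244 was at 0 to 0.329 CPM in controls and 5.43 to 21.1 in Dis3 cKO.

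The RNAs that fell furthest included a monooxygenase, transporters and a chromatin remodeller. Fmo6, of the flavin-containing monooxygenase family, was at 10.5 to 28.1 CPM in controls (median 21.2) and at 0 to 1.39 in Dis3 cKO (median 0.835). It fell by 4.75 on the log2 scale (SE 0.417, edgeR adjusted p 3.28e-07). Slc7a1, the main transporter of arginine and lysine into many cells, was at 74.4 to 110 CPM in controls and 7.77 to 24.4 in Dis3 cKO. It fell under both scalings (-2.66, SE 0.207, edgeR adjusted p 9.75e-08, and -3.21 per ERCC). The cKO tags did not overlap, with 7.77 to 11.7 CPM in AM1713 and 13.2 to 24.4 in AM1757. Slc35a1, which carries CMP-sialic acid into the Golgi, went from 25.4 to 36.2 CPM down to 4.65 to 9.97 (-2.27, SE 0.167, edgeR adjusted p 6.26e-08). It too was lower in AM1713 (4.65 to 5.23 CPM) than in AM1757 (5.92 to 9.97). Bicra, a subunit of a BAF chromatin-remodelling complex, was at 89.4 to 126 CPM in controls and 15.8 to 37.4 in Dis3 cKO (-2.19, SE 0.157, edgeR adjusted p 5.24e-08).

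Slit3, a secreted guidance factor (-3.37), the protease inhibitor Serpinb1c (-2.55), the basement membrane protein Nid1 (-2.19), Astn1 (-2.12) and the coronin Coro2a (-2.05) also fell. Rnf152, a ubiquitin ligase, fell by 2.57, with means of 0.200 CPM in AM1713 and 5.37 in AM1757 against 13.4 to 20.3 CPM in single controls. Rbm47, an RNA-binding protein, fell by 2.25. It was at 0.637 to 0.860 CPM in 3 AM1713 oocytes and 11.4 in the other, and at 9.54 to 9.95 in the AM1757 oocytes, against 21.3 to 42.1 in controls. The predicted genes with the largest falls were Gm4907 (-4.33), Gm43574 (-2.70), Gm43923 (-2.28) and Gm49461 (-2.10).

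**Figure D3:**
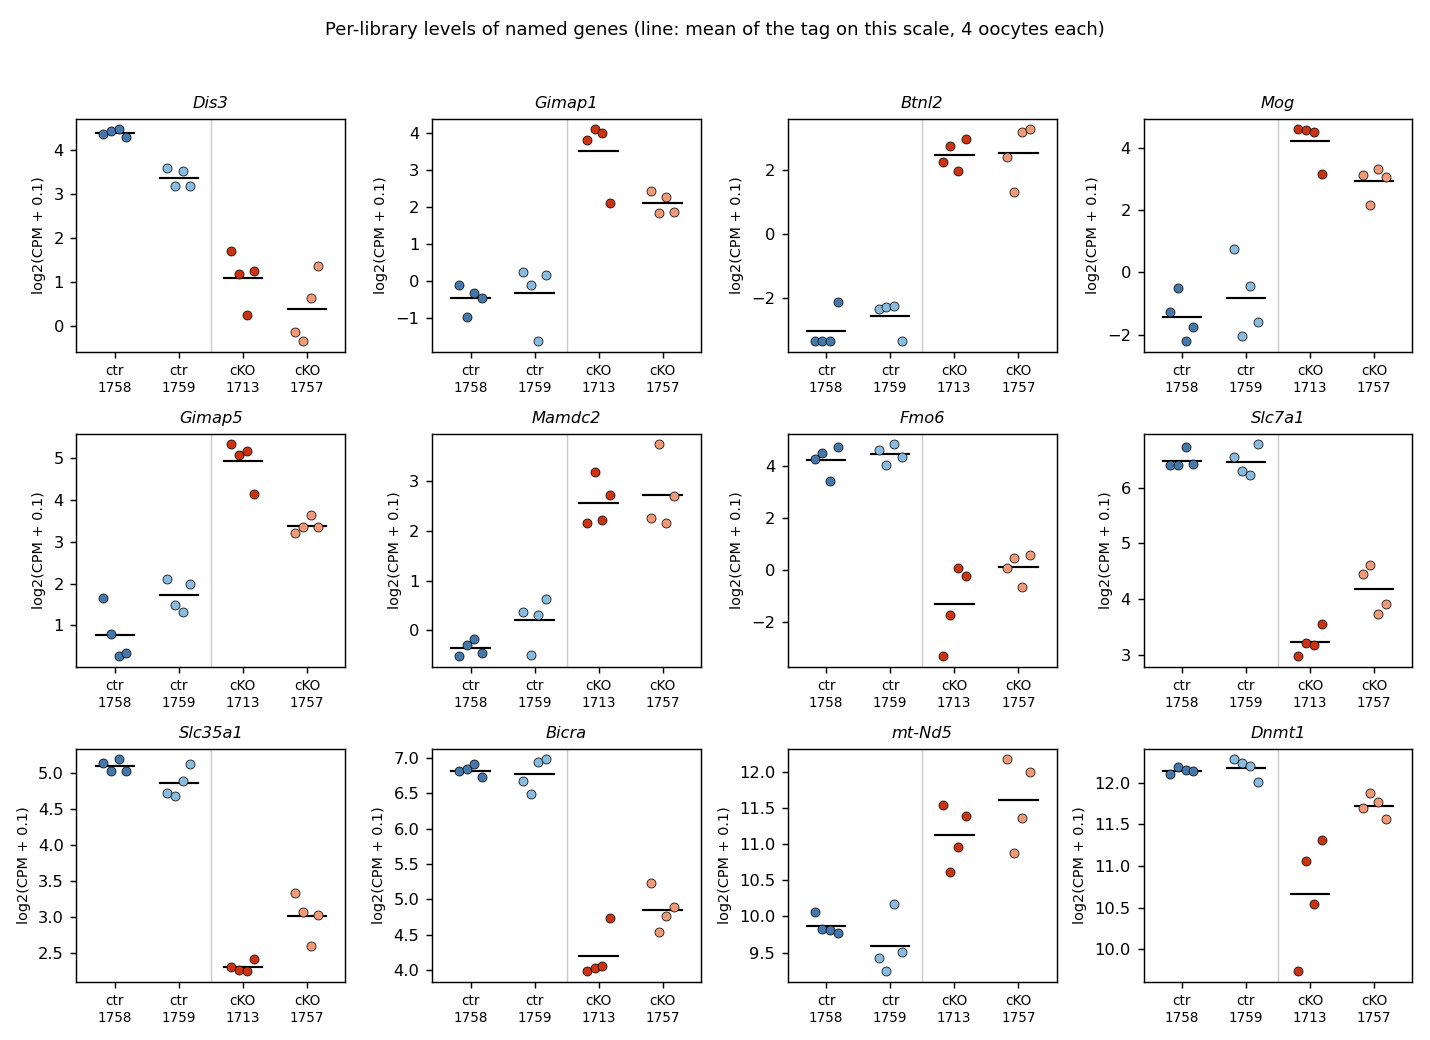
Each panel shows 1 named gene in 16 oocytes as log2(CPM + 0.1), grouped by title tag, with the mean of each tag as a line (axes do not start at 0). Groups do not overlap in any of the 12 genes, a condition by which most of them were chosen. The cKO tags do not overlap in Gimap5, Dnmt1, Slc7a1 and Slc35a1. Mog and Gimap1 overlap between them with a higher mean in AM1713, while Btnl2 and Mamdc2 lie at like levels in both. The cKO tags overlap in mt-Nd5, with 1576 to 2979 CPM in AM1713 and 1888 to 4623 in AM1757.

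Since lncRNA genes were called higher more often than coding genes, their promoters were examined. Of 982 lncRNA genes tested, 324 were higher under library scaling (33.0%) and 42 lower (4.28%), against 12.8% and 14.2% of 12496 coding genes. Under ERCC scaling 186 lncRNA genes were higher (18.9%) and 169 lower (17.2%), against 1.84% and 45.3% of coding genes. The 186 were higher under both scalings. Promoter sequences (RefSeq, GRCm38.p6) were matched for 787 lncRNA and 10103 coding genes. A lncRNA was counted as divergent when a coding gene started on the opposite strand between 100 bases downstream and 1000 bases upstream of its own start. Of 147 lncRNAs higher under both scalings with a promoter, 64 were divergent (43.5%), against 29 of 113 that were higher under library scaling only (25.7%), 76 of 500 not called under library scaling (15.2%) and 5 of 27 that were lower (18.5%). The shares were alike at low and higher control levels, with 43 of 97 against 30 of 204 under a control mean of 1 CPM and 21 of 50 against 46 of 296 above it. Coding genes higher under both had a divergent partner in 27 of 181 cases (14.9%), and coding genes not called in 955 of 7344 (13%). The shares are descriptions with no test.

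The 64 divergent lncRNAs described here were chosen as higher under both scalings, so their own change is fixed by the choice. Of all 174 divergent lncRNAs tested, 76 were not called and 5 were lower. In the 62 chosen pairs whose coding partner was tested, the partners had a median log2 change of 0.05, and 12 were higher and 9 lower, beside 15.7% and 12.4% of all genes tested. The median distance between the 2 starts was 152 bases. In 29 pairs the lncRNA overlaps a coding gene, so that reads could be shared where counting did not use strand. Gm16157, which overlaps a coding gene, and its partner Fam169b were the one pair in which both rose by over 2 (2.33 and 2.39).

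**Figure D4:**
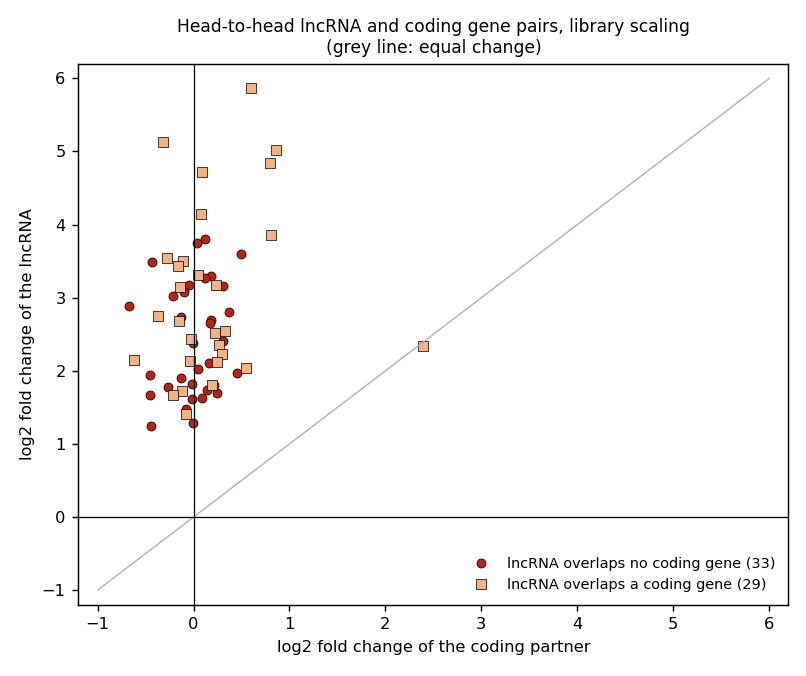
Each point is a pair of a lncRNA higher under both scalings and the coding gene that starts on the other strand within 1000 bases, with the log2 fold change of the coding gene on the x axis and of the lncRNA on the y axis (library scaling). The 62 pairs lie along the y axis, with partner medians near 0 (0.05) and lncRNA changes of 1.25 or more, apart from Gm16157 with Fam169b on the grey line of equal change.

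The promoters of 4 such lncRNAs that overlap no coding gene and were highest in Dis3 cKO are shown as examples chosen after their values were seen, beside those of Btnl2 and Mog, which rose without a divergent partner. Each runs from 250 bases before to 50 bases after the annotated start, 5′ to 3′ on the strand of the named gene (GRCm38.p6), and capitals mark CCAAT boxes (CCAAT or ATTGG) and GC boxes (GGGCGG or CCGCCC). 2810013P06Rik is at chr8:123042325-123042624, plus strand, 4632404H12Rik at chr3:89773351-89773650, minus strand, 3110083C13Rik at chr14:57999062-57999361, plus strand, Snhg18 at chr15:32244613-32244912, minus strand, Btnl2 at chr17:34354572-34354871, plus strand and Mog at chr17:37023349-37023648, minus strand.
2810013P06Rik: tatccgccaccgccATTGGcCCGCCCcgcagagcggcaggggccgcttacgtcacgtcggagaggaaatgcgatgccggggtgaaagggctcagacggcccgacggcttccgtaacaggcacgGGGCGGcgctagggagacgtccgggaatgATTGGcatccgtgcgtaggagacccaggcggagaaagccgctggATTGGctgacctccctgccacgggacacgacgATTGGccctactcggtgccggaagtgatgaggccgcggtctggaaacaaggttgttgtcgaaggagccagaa
4632404H12Rik: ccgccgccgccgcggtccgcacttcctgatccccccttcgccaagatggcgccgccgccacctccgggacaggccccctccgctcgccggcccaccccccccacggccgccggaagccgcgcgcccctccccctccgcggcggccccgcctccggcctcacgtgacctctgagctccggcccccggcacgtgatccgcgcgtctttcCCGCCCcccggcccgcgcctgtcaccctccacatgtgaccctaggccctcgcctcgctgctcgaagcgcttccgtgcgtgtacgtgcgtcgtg
3110083C13Rik: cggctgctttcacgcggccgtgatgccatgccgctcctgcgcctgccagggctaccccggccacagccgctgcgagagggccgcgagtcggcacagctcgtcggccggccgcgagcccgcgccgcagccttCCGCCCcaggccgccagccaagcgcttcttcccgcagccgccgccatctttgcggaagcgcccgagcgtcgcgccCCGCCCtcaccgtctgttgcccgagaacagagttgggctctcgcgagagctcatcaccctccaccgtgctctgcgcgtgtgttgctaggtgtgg
Snhg18: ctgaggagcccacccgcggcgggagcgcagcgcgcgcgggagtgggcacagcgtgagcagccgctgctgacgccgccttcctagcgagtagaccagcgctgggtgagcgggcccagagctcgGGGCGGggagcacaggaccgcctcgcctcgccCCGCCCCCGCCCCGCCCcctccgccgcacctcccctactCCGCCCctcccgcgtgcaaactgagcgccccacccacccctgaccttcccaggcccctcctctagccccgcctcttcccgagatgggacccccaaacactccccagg
Btnl2: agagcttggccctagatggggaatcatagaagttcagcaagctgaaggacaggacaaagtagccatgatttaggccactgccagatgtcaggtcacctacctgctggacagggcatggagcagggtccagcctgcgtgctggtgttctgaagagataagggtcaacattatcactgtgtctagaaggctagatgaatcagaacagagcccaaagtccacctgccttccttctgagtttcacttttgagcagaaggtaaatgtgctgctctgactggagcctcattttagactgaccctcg
Mog: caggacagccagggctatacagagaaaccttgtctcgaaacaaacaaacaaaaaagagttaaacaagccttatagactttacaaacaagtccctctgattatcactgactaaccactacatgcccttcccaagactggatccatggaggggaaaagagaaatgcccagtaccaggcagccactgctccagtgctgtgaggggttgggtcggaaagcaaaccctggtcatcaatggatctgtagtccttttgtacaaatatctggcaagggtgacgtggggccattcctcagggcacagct

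The window of 2810013P06Rik holds 4 CCAAT boxes and 2 GC boxes, that of Snhg18 holds 5 GC boxes, that of Lrtm1 holds 3 CCAAT boxes, that of Gimap1 holds 1, and those of Btnl2 and Mog hold neither motif. Among lncRNAs higher under both scalings 53.7% of windows held a GC box and 35.4% a CCAAT box, against 30.0% and 37.6% of lncRNAs not called and 35.7% and 37.4% of all 32851 windows. TATAAA, searched on both strands, was in 7.48%, 13.2% and 13.6% of them. The median G+C content was 59.3% against 50.7%, and the median gene span 4631 against 14193 bases, for lncRNAs higher under both and lncRNAs not called. Windows of all coding genes tested held a GC box in 62.7% of cases, with a median G+C content of 60.7%. The GC box was in 47.5% of coding genes higher under both and 62.2% of those not called. Windows of divergent lncRNAs can hold promoter sequence of the coding partner, and the lncRNA values were not split by divergence.

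2810013P06Rik starts 291 bases from Ankrd11, a chromatin regulator, on the opposite strand. The lncRNA went from 1.73 to 3.88 CPM in controls to 16.2 to 47.3 in Dis3 cKO (3.59, SE 0.280, edgeR adjusted p 9.75e-08), and Ankrd11 rose by 0.50 (edgeR adjusted p 0.018). 4632404H12Rik, 209 bases from the ubiquitin-conjugating enzyme gene Ube2q1, went from 2.56 to 4.21 CPM up to 11.9 to 51.5 (3.08), while Ube2q1 was at -0.10 (edgeR adjusted p 0.591). In the other 2 pairs the partners went the opposite way. 3110083C13Rik rose by 1.68 and Micu2, a regulator of mitochondrial calcium uptake that starts 50 bases away, fell by 0.46 (edgeR adjusted p 0.00441). Snhg18, a snoRNA host gene, went from 4.65 to 9.36 CPM up to 13.3 to 23.8 (1.25), and the semaphorin gene Sema5a, 151 bases away, fell by 0.44 (edgeR adjusted p 0.00121). For all 4 lncRNAs the groups did not overlap.

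Mitochondrially encoded genes were the most abundant RNAs to rise under both scalings. Of 21 tested in the whole class, transfer RNAs included, 20 were higher and 0 lower under library scaling (edgeR), and 14 were higher and 1 lower, mt-Tv, under ERCC scaling. The list of messenger and ribosomal RNAs had 9 tested members of 15, all 9 higher under library scaling, with a median change of 1.17 (0.68 to 1.72), and 5 under ERCC scaling. The 5 encode subunits of complex I and cytochrome b. mt-Nd5 lay at 606 to 1159 CPM in controls (median 889) and 1576 to 4623 in Dis3 cKO (median 2671), with no overlap (1.72, SE 0.200, edgeR adjusted p 6.55e-06). Per ERCC count mt-Nd5 rose by 1.06 (edgeR adjusted p 4.47e-05), mt-Nd4 by 0.79, mt-Nd2 by 0.69, mt-Cytb by 0.62 and mt-Nd1 by 0.50. The ribosomal RNAs mt-Rnr1 and mt-Rnr2 rose less, by 0.68 and 0.76 under library scaling, overlapped between the groups and did not pass per ERCC count (0.02 and 0.11). With the tag as a block 7 of 9 passed (limma), the exceptions being mt-Rnr1 and mt-Rnr2. Gpr137c, an orphan receptor gene, was the other abundant gene of the rule that was higher under both (122 to 156 CPM in controls, 206 to 486 in Dis3 cKO). Its mean count per 1000 ERCC counts was 128 in AM1713 and 54.7 in AM1757, against 54.7 and 50.7 in the control tags.

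The nuclear genes of oxidative phosphorylation did not follow. Of 46 tested, 3 were higher and 13 lower under library scaling (median -0.12), beside 15.7% and 12.4% of all genes tested. With the tag as a block 1 was higher and 8 lower (limma). Under ERCC scaling 31 were lower, beside 40.1% of all genes tested. Complex I subunit genes Ndufb5 (-1.01) and Ndufa4 (-0.88), Uqcrh of complex III (-0.49) and Cox6a1 of complex IV (-0.80) fell with no overlap between the groups. Of the 3 higher genes Ndufv2 (0.28) and Atp5c1 (0.22) passed neither under ERCC scaling nor with the tag as a block. The third, Cycs, cytochrome c, was also higher under ERCC scaling, at 0.304 to 1.30 CPM in controls and 1.36 to 7.86 in Dis3 cKO (2.12). Of 54 cytosolic ribosomal protein genes, 3 were higher and 4 lower under library scaling, and 1 and 1 with the tag as a block (limma). Per ERCC count 0 were higher and 29 lower, beside 4.56% and 40.1% of all genes tested.

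Of 30 exosome and adaptor genes tested, Dis3 among them, 2 were higher and 4 lower under library scaling, beside 15.7% and 12.4% of all genes tested. With the tag as a block 2 were higher and 2 lower (limma). Under ERCC scaling 1 was higher and 17 lower, beside 4.56% and 40.1% of all genes tested. Exosc10, the other nuclear exosome ribonuclease, was at 119 to 150 CPM in controls and 98.2 to 168 in Dis3 cKO (0.04, edgeR adjusted p 0.805). Per ERCC count it was called lower, at the median of all genes (-0.52, edgeR adjusted p 0.0164). Srrt, the ARS2 protein that links the cap-binding complex to RNA decay and 3′ end processing, rose from 28.4 to 47.9 CPM in controls to 68.5 to 173 in Dis3 cKO (1.85, SE 0.203, edgeR adjusted p 3.88e-06). Zfc3h1, a subunit of the poly(A) tail exosome targeting connection, rose by 0.38 under library scaling and was at -0.13 per ERCC. Exosc9, a subunit of the exosome core, fell from 21.0 to 42.8 CPM down to 3.07 to 14 (-2.02, SE 0.25, edgeR adjusted p 1.25e-05). Besides Dis3, the other called genes were the poly(A) polymerases Tent4b (-0.22) and Tent4a (-0.20), neither of which passed with the tag as a block. Among 37 genes of cytoplasmic decay and deadenylation, 3 were higher and 8 lower, beside 15.7% and 12.4% of all genes tested, and with the tag as a block 5 were lower and no higher call was left (limma). Per ERCC count 0 were higher and 26 lower, beside 4.56% and 40.1% of all genes tested. Under library scaling the exonuclease Xrn1 (-0.53), the deadenylase subunit Pan3 (-0.44) and the surveillance factor Upf1 (-0.44) were among the lower.

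Structured noncoding RNAs and snoRNA host genes, whose processing involves the exosome, had members that rose and none that fell. Of 14 structured noncoding RNAs 7 were higher under library scaling (median 0.73), beside 15.7% of all genes tested. Under ERCC scaling 2 were higher, beside 4.56% of all genes tested, and 1 was higher with the tag as a block (limma). That one was Rpph1, the RNA of ribonuclease P, at 4.25 to 7.60 CPM in controls and 7.91 to 32.0 in Dis3 cKO (1.61, edgeR adjusted p 0.000472). Of 14 snoRNA host genes 5 were higher under library scaling (median 0.40), beside 15.7% of all genes tested, and 4 with the tag as a block (limma). Snhg9 (2.75), Snhg10 (1.78) and Snhg18 (1.25) were also higher under ERCC scaling. Of 38 replication-dependent histone genes 7 were higher and 2 lower, per ERCC count 2 and 9, and with the tag as a block 4 and 3. The linker histone gene Hist1h1e was at 2.81 to 38.7 CPM in controls and 17.3 to 125 in Dis3 cKO (2.90), while the abundant Hist1h1a (0.80) and Hist1h3f (0.88) rose under library scaling alone. Hist1h2bc and Hist1h2aa, on the other hand, fell by 0.66 and 0.60. Members of this family are near-identical copies, so the split of reads between them is uncertain. Of 12 histone variant genes 3 were higher, H2afj the most (2.17), and 1 passed with the tag as a block.

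The egg stores the subcortical maternal complex and Nlrp proteins for the first cleavages. Of 16 such genes tested, 11 were lower and 0 higher under library scaling (edgeR, median -0.40), beside 12.4% and 15.7% of all genes tested. With the tag as a block 9 were lower (limma). Under ERCC scaling 15 were lower, beside 40.1% of all genes tested. The list had 0 higher genes in the poly(A) data as well, where 7 were lower. Padi6, an egg lattice protein, lay at 908 to 1295 CPM in controls and 583 to 812 in Dis3 cKO (-0.73, edgeR adjusted p 6.33e-06). Tle6 (-0.63), Khdc3 (-0.80), Nlrp14 (-0.54), Nlrp2 (-0.47), Nlrp9a (-0.70) and Nlrp9c (-0.88) also fell with no overlap, whereas Ooep (-0.39) and Nlrp5 (-0.41) fell with overlapping groups. The Nlrp9 genes are paralogs that may share reads. Of 15 genes for the zona pellucida and secreted factors 7 were lower and 1 higher (median -0.35), and with the tag as a block 6 were lower and the higher call was lost (limma). Zp3, the sperm-binding zona protein, was at 565 to 934 CPM in controls and 382 to 518 in Dis3 cKO (-0.78), Zp1 fell by 0.58, Zp2 by 0.35 and the sperm receptor Izumo1r by 0.56. The growth factors Gdf9 (-0.41, edgeR adjusted p 0.238) and Bmp15 (-0.13, edgeR adjusted p 0.315) did not pass. Of 15 oocyte transcription factors 3 were higher and 3 lower, Lhx8 the furthest (-0.69), and with the tag as a block 3 were lower and no higher call was left (limma).

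Signalling from the KIT receptor through PI3K and mTOR, which supports oocyte growth, was represented by 25 genes. Of these, 11 were lower and 0 higher under library scaling (edgeR, median -0.28), beside 12.4% and 15.7% of all genes tested. Under ERCC scaling 19 were lower, beside 40.1% of all genes tested. Kit itself was at 549 to 691 CPM in controls and 130 to 543 in Dis3 cKO (-0.65, edgeR adjusted p 0.0125). Rictor, the defining subunit of mTOR complex 2, fell by 0.67 (332 to 394 CPM against 192 to 257, edgeR adjusted p 9.97e-07) and the catalytic subunit Pik3ca by 0.51, both with no overlap. With the tag as a block 9 of the 25 genes were lower and 0 higher (limma).

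Among 31 genes of DNA and histone methylation 12 were lower and 1 higher (median -0.17), beside 12.4% and 15.7% of all genes tested. With the tag as a block 11 were lower and 1 higher (limma). Under ERCC scaling 22 were lower, beside 40.1% of all genes tested. Dnmt1, the maintenance DNA methyltransferase, lay at 4109 to 4969 CPM in controls and 855 to 3758 in Dis3 cKO (-0.82, SE 0.204, edgeR adjusted p 0.00544). Its mean was 1752 CPM in AM1713 and 3394 in AM1757, so the groups did not overlap but the size of the fall differed between the tags. Dnmt3l, the cofactor of de novo methylation in oocytes, fell by 0.74, Uhrf1, which recruits DNMT1, by 0.46, Dppa3, which keeps UHRF1 from the nucleus in oocytes, by 0.53, and the H3K4 methyltransferase Kmt2d by 0.59. Zfp57, a reader of imprinted DNA, was the higher gene (0.46) and stood at -0.08 per ERCC. Of 32 Polycomb genes 7 were lower and 3 higher, and with the tag as a block 4 were lower and no higher call was left (limma). Kdm2b fell from 512 to 619 CPM down to 190 to 366 (-1.0).

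Genes of meiotic arrest and resumption counted 6 of 35 higher and 8 lower, beside 15.7% and 12.4% of all genes tested, and 3 and 5 with the tag as a block (limma). Per ERCC count 1 was higher and 24 lower, beside 4.56% and 40.1% of all genes tested. Cdc34b, a retrogene of the ubiquitin-conjugating enzyme Cdc34, had the smallest p of the list (12.7 to 22.7 CPM in controls, 68.8 to 124 in Dis3 cKO, 2.63, SE 0.159, edgeR adjusted p 5.56e-09), and Cdc34 itself fell by 0.44. Pde3a, the phosphodiesterase whose activity breaks the cAMP arrest, was at 501 to 559 CPM in controls and 170 to 330 in Dis3 cKO (-1.15, SE 0.111, edgeR adjusted p 9.97e-07). Cdc25b, the phosphatase that activates CDK1, fell by 0.87 and the cyclin Ccnb3 by 1.09, while Ccnb1 (0.37), Arpp19 (0.37) and Mos (0.30) rose under library scaling. Of 27 genes of meiotic chromosomes and cohesin 4 were higher, among them the cohesin subunit Stag1 (0.87), and 4 lower, among them securin Pttg1, at 174 to 223 CPM in controls and 89.3 to 119 in Dis3 cKO (-0.98, edgeR adjusted p 8.63e-08). Separase, Espl1, whose activity securin blocks, fell by 0.57.

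Of 23 amino acid and solute transporters 4 were higher and 7 lower, and besides Slc7a1 the neutral amino acid exchanger Slc7a8 fell from 12.1 to 34.1 CPM down to 2.17 to 10.3 (-1.67). Of 28 genes of the DNA damage checkpoint and p53 family 3 were higher and 4 lower. Tert, the telomerase reverse transcriptase kept in that list, was at 90.1 to 117 CPM in controls and 15.5 to 35.9 in Dis3 cKO (-1.91, SE 0.142, edgeR adjusted p 6.69e-08). Maternal mRNA regulators split, with Zar1 (-0.70), Ybx2 (-0.69) and Pabpc1l (-0.55) lower and Dazl (0.53) higher among 4 higher and 6 lower of 23. Stress-response and zygotic genes counted 3 higher and 6 lower of 23, the chaperones Dnajb1 (-0.75) and Hspa5 (-0.82) and the peroxidase Prdx1 (-0.58) among the lower. The lists for RNA polymerase II and elongation (2 higher and 9 lower of 42), 3′ end processing (5 and 5 of 38), the spliceosome (7 and 6 of 42) and ribosome biogenesis (5 and 7 of 44) had medians between -0.05 and 0.08. With the tag as a block (limma) these 4 lists had fewer calls, 0 higher and 6 lower, 0 and 2, 2 and 2, and 2 and 3. The block called 1 higher and 6 lower maternal mRNA regulators, 0 and 4 stress-response and zygotic genes, 0 and 2 DNA damage genes and 1 and 6 transporters (limma). Polr2a, the largest subunit of RNA polymerase II, was at 67.5 to 103 CPM in controls and 74.9 to 111 in Dis3 cKO (0.09, edgeR adjusted p 0.543).

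**Figure D5:**
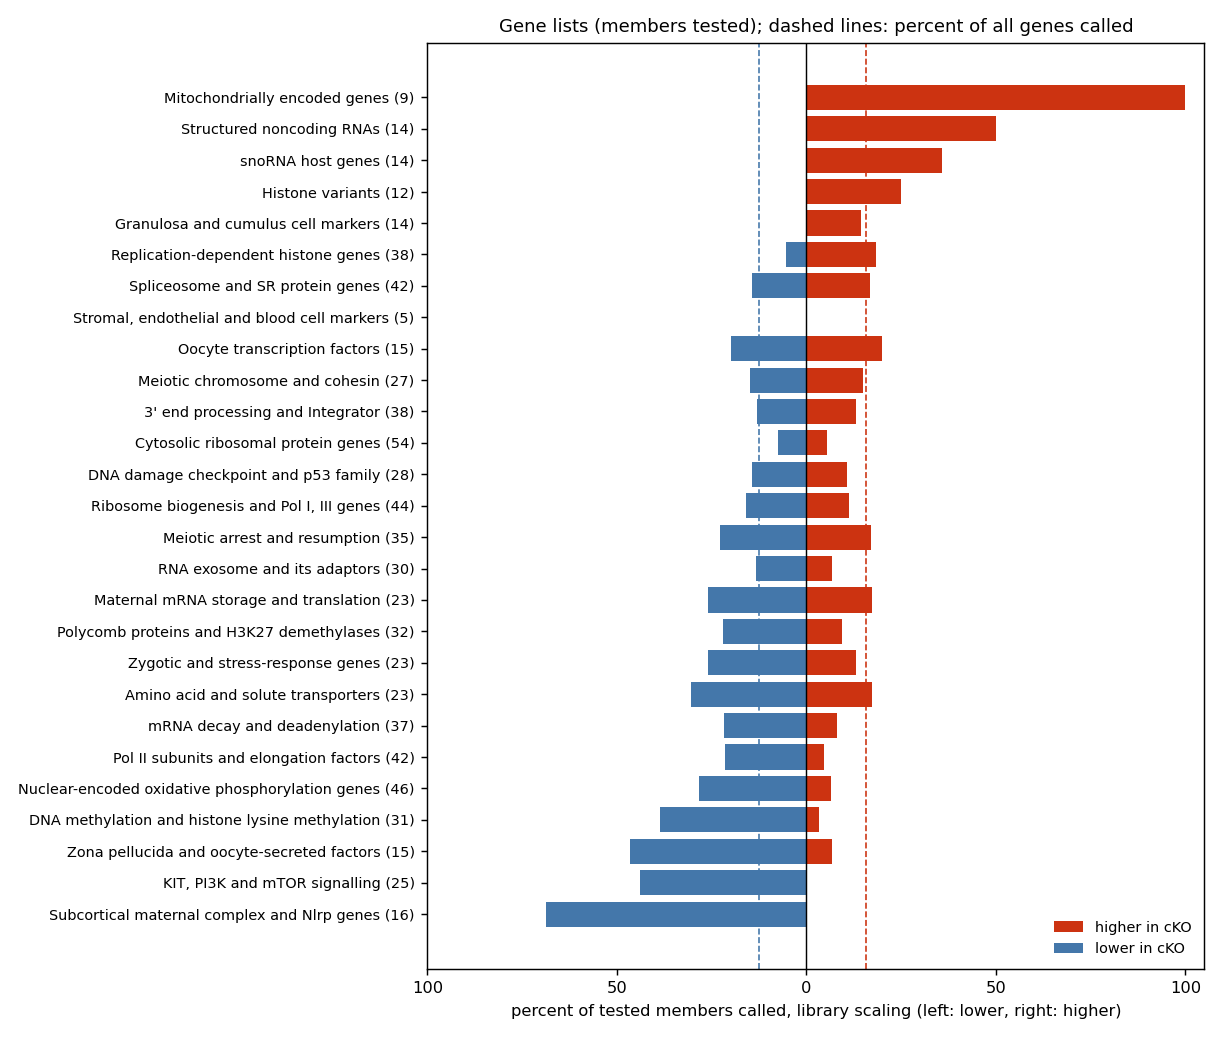
Bars give the percent of tested members of each of 27 gene lists called higher (right, red) or lower (left, blue) in Dis3 cKO under library scaling, with the number tested in parentheses. Dashed lines mark the percent of all 15334 genes called, 15.7% higher and 12.4% lower. The mitochondrially encoded list lies farthest to the right with 9 of 9 higher, and the subcortical maternal complex list farthest to the left with 11 of 16 lower.

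The tags were compared in 1 fit over 17399 genes, with 4 oocytes a tag. The control tags AM1759 and AM1758 differed in 160 genes (0.92%). The cKO tags AM1757 and AM1713 differed in 2998 (17.2%), and AM1757 differed from AM1758 in 1973 genes (11.3%) and from AM1759 in 1850 (10.6%), all under library scaling. The order turned under ERCC scaling, with 1094 genes between the cKO tags and 4611 and 3193 between AM1757 and the control tags. Under library scaling AM1713 differed from the control tags in 5564 (32%) and 5402 (31%). The contrasts AM1713 with AM1758 and AM1757 with AM1759, which have no library in common, called 664 genes higher in both, 22.8% of the first list and 67.6% of the second, with 17 called in opposite directions. They called 527 lower in both, 19.8% and 60.7%, with 47 in opposite directions.

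Poly(A) libraries of other GV oocytes gave the same direction for most of the large changes. Among 16074 genes in a joint fit, 2521 were higher (15.7%) and 2084 lower (13%) in poly(A) Dis3 cKO. Of 684 genes higher under both scalings in total RNA and present in that fit, 548 were higher in poly(A) (80.1% of them, and 25.2% of the 2172 genes higher in poly(A) that were also tested in total RNA alone) and 1 was lower. Of 1886 genes lower under library scaling 903 were lower in poly(A) (47.9%, and 44.0% of the 2051 such genes lower in poly(A)), with 22 opposite. Among the 64 divergent lncRNAs 56 were higher. Btnl2 (5.27), Mog (4.92) and Gimap5 (1.96) rose and Slc7a1 (-2.32), Slc35a1 (-2.20) and Bicra (-2.34) fell in poly(A) RNA. Mamdc2 was at -0.59 there (edgeR adjusted p 0.491).

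The effect itself differed between total and poly(A) RNA for 368 genes (2.29%), 195 more positive and 173 more negative in total RNA. Under ERCC scaling it differed for 81, 38 more positive and 43 more negative. Rpl37rt rose in total RNA and fell in poly(A) RNA (-1.48), a difference of 4.43 (SE 0.697, edgeR adjusted p 0.000135). The microtubule-associated protein gene Map4 lay at 701 to 793 CPM in total RNA of controls and 240 to 331 in Dis3 cKO. In the joint fit it was at -1.43 in total RNA (edgeR adjusted p 0.0641) and at 1.60 in poly(A) RNA, a difference of -3.03 (edgeR adjusted p 0.0283) that did not pass under ERCC scaling (-3.43, edgeR adjusted p 0.0505). Fmo6 fell further in total RNA than in poly(A) RNA (-1.38), by -3.41. Of 1155 lncRNA genes 24 had a more positive and 3 a more negative effect in total RNA. The 9 tested members of the mitochondrial list were higher in both kinds of RNA, with a median difference of -0.15, and the effects differed for 0 of 9 (edgeR). Of 20 genes of the whole mitochondrial class in that fit, 11 were higher in poly(A) RNA and the effect differed for 1. Of 33 replication-dependent histone genes, 13 were higher and 1 lower in poly(A) RNA (median 0.72), beside 15.7% and 13% of all genes in the fit. Their effect was more positive in total RNA for 0 and more negative for 4. Kind of RNA, library protocol and the oocytes sampled change together in this comparison and cannot be told apart.

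Against the p20 oocytes the effect differed for 1965 of 16173 genes (12.1%), 1086 more positive and 879 more negative in adult oocytes. Under ERCC scaling it differed for 614, and the balance turned, with 250 more positive and 364 more negative. For 8 of the 9 mitochondrial list members the adult effect was more positive (median difference 1.32), and 0 of 9 were called in p20 oocytes in either direction (edgeR). Over the whole class of 21 it was more positive for 8, and 5 were higher in p20 oocytes. Among lncRNAs 126 of 1065 had a more positive and 15 a more negative effect in adult oocytes, and 7 of the 25 KIT, PI3K and mTOR genes had a more negative one and 0 a more positive one. Slc7a1 (-0.21 at p20), Slc35a1 (-0.31) and Tert (-0.25) did not pass at p20, and their adult effects were more negative (edgeR adjusted p of the difference 1.74e-09, 1.36e-08 and 4.78e-09). Btnl2 rose at both stages (5.88 at p20), with no difference passing the test (edgeR adjusted p 0.926), and Mamdc2 rose further at p20 (4.5, edgeR adjusted p of the difference 0.0457, and 0.072 under ERCC scaling). The adult and p20 oocytes are separate sets, and any batch of either set cannot be told apart from stage. Titles of the p20 libraries carry tags as well, and the fit of this difference used the tags of neither set.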

How the data were processed

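Single mouse oocytes were sequenced as total RNA after removal of ribosomal RNA, with random hexamers and the Ovation Solo kit, per the labels' protocols. The authors deposited raw counts, as whole numbers, for each Ensembl gene ID and each ERCC RNA, separately for every library. The submitters' processing notes name mm10, cutadapt 2.5, STAR 2.7.2a, SAMtools 1.9, HTSeq 0.9.1 and DESeq2 1.24.0 without roles. Strand setting, annotation release and the treatment of reads with several matches are not given in the sources used here. Of the gene IDs 99.4% had a symbol, and IDs with a RefSeq biotype held 98.3% of counts.

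Counts were tested in R 4.3.3 by the quasi-likelihood test of edgeR 4.0.16 (genes kept by filterByExpr, Benjamini-Hochberg adjustment over all genes tested, threshold 0.05), with TMM scaling or with library sizes set to the ERCC sums. Standard errors (SE) were taken from the log2 change and its F statistic. CPM are per 1000000 gene counts of a library after its size was scaled by TMM. The number of genes at 1 CPM or more used unscaled sizes. Differences between assays, stages and tags came from fits over those groups. Ratios and class shares were compared on the log2 scale by 2-sided exact permutation tests, whose smallest p is 0.000155. Alternatives used DESeq2 1.42.0, limma 3.58.1 with the tag as a block, other filters and scalings, counts summed per tag, and fits without each library or tag. On simulated data of 15334 genes with 50 changed per fold, the edgeR step recovered 44 at 4-fold, 29 at 2-fold, 26 at 0.5-fold and 43 at 0.25-fold. It also called 7 unchanged genes. The simulated oocytes were drawn independently with no difference between tags, so the simulation cannot show how calls fare where tags differ. Intervals of counting error are not given, since reads without molecular identifiers are not independent molecules.

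The comparison, the 28 gene lists and the tests were chosen with earlier results of these data known. Named genes were Dis3 and Exosc10, the 12 largest changes a direction (and up to 4 predicted genes) among those called under both scalings, not overlapping and at 5 CPM or more in 1 group, the 6 most abundant called under both in each direction, those called in opposite directions, up to 4 members of each list a direction, and the 6 largest interaction terms and tag differences. Further list members are examples chosen after their values were seen. A few genes that the rule named are not reported here.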

Additional observations from a re-analysis of the deposited data

Results flagged for a closer look

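In 5 of 108 checks of a group of 8 oocytes, 1 oocyte stood apart from the others, and chance alone gives such a flag in about 0.05 of groups. Cell AM1713_1 had a replication-dependent histone share of 0.382%, the highest of the Dis3 cKO oocytes, with the next at 0.230%. Among controls, Mog was at 1.58 CPM in AM1759_1 (next 0.646), Cpeb1os1 at 1.97 CPM in AM1758_3 (next 0.706), 1700019L13Rik at 0.398 CPM in AM1758_1 (next 0.0329) and Gm5129 at 0.464 CPM in AM1758_4 (next 0.0988). The genes named here were chosen as not overlapping between the groups, so these control values lie below every Dis3 cKO oocyte by that choice.

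The effect of Dis3 loss differed between total RNA and poly(A) RNA by a test of the difference itself. It was more positive in total RNA, on the log2 scale, for Vmn1r139 (9.26), Rpl37rt (4.43), Entpd1 (3.55), Gm38342 (3.53), Gm10800 (3.46) and Gm5129 (3.19). It was more negative for Plod2 (-4.10), Fmo6 (-3.41), Map4 (-3.03), Stc2 (-2.74), Gm10466 (-2.29) and Ncs1 (-1.86). Under ERCC scaling 5 of these 12 differences did not pass: Map4, Gm5129, Gm10800, Stc2 and Ncs1 (edgeR adjusted p 0.0505, 0.0714, 0.0964, 0.0747 and 0.112). Vmn1r139 was at 0 in all 15 poly(A) Dis3 cKO oocytes, so its fitted difference depends on the prior count. Entpd1, an ectonucleotidase gene, rose in total RNA and fell in poly(A) RNA (1.13 and -2.41 in the joint fit).

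The effect also differed between adult and p20 oocytes. It was more positive in adult oocytes for Sh3rf2 (13.93), Gm30198 (11.7), Hmgn3 (7.12), Rassf4 (6.58), Gm7104 (5.98) and BC023719 (5.54), and more negative for Pxdn (-11.43), B020011L13Rik (-7.44), Mt1 (-7.29), Gm10401 (-6.06), A930015D03Rik (-6.06) and Tmem175 (-4.86). These 12 differences passed under ERCC scaling as well. Gm30198 was at 0 in all 8 p20 Dis3 cKO oocytes, and its fitted difference depends on the prior count as well. Pxdn, a peroxidase of the extracellular matrix, was at 0 to 0.489 CPM in p20 controls and 253 to 328 in p20 Dis3 cKO, while its adult change was -0.54. In adult oocytes Hmgn3 was called higher and Pxdn and Gm7104 lower, none of them with the tag as a block (limma adjusted p 0.678, 0.0532 and 0.0909). Sh3rf2, at 14.8 to 22.8 CPM in the 4 AM1713 oocytes and near 0 in the other adult oocytes, did not pass the filter on low counts for the adult oocytes alone.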

How the results depend on the processing

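Leaving out 1 library at a time gave 3807 to 4566 genes under library scaling, 5695 to 7759 under ERCC scaling and a ratio difference of -0.76 to -0.58. Per ERCC count lncRNA ranged from -0.54 to -0.34, mitochondrial RNA from 0.33 to 0.45 and genes of no class from -0.47 to -0.22, the last passing without AM1713_3 (exact permutation, adjusted p 0.0289). The small noncoding share ranged from 0.35 to 0.61 and passed without AM1757_2 (0.0133). Without a tag, library scaling gave 2198 (AM1758) and 2408 (AM1759) genes and ERCC scaling 2436 and 3553. Counts summed per tag left 0 genes with edgeR under library scaling (2957 at an unadjusted p under 0.05) and 3646 under ERCC scaling, the tag as a block (limma) 1993 under library scaling, and DESeq2 over all oocytes 4830. Under ERCC scaling the tag contrasts gave 69 (AM1759 with AM1758; DESeq2 257), 1094 (AM1757 with AM1713), 3671 and 3291 (AM1713 with AM1758 and AM1759), and 4611 and 3193 genes (AM1757 with them). The difference from poly(A) gave 81 genes under ERCC scaling (38 more positive, 43 more negative) and 589 with DESeq2, and the difference from p20 gave 614 under ERCC scaling (250 and 364). Zscan4d turned to -0.0651 under ERCC scaling without AM1713. Oocyte numbers do not pair the groups (correlations -0.157 to 0.129), and the replicate block gave 3892 and 7076 genes. Of 198 genes named by the lists and rules, 65 lost their library call with the tag as a block, and 197 with counts summed per tag, the other being Exosc10, which was not called under library scaling. The causes were not tested. With 2 tags a genotype, what a tag adds limits every count here, and RNAs near 0 in controls have poorly set folds.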

Other observations

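A few genes were close to all or none between tags of 1 genotype. In controls, Mt1, a metallothionein that binds zinc and copper, was at 63.2 to 86.9 CPM in the 4 AM1759 oocytes and 0.265 to 1.23 in the 4 AM1758 oocytes (log2 7.12, SE 0.378, edgeR adjusted p 5.7e-10), and at 27.7 to 71.3 CPM in Dis3 cKO. Gm44988 was at 22.9 to 34.7 CPM in AM1759 and 0.0393 to 0.132 in AM1758, and the cKO tags were split alike, with 27.3 to 40.2 CPM in AM1757 and 0 to 0.0670 in AM1713. 5730507C01Rik was at 0 in all AM1759 oocytes, and AC127234.1 (-9.56), Slc39a8 (-7.72), a zinc transporter gene, and Gm46426 (-7.62) were lower in AM1759 than in AM1758. Between the cKO tags, Sh3rf2 was at 14.8 to 22.8 CPM in AM1713 and 0 to 0.0349 in AM1757, Grb14, an adaptor of receptor signalling, at 0 to 0.391 and 8.37 to 18.7 CPM, and Gm15668 at 0 in all AM1713 oocytes and 3.84 to 7.05 CPM in AM1757. Grb14 was called higher in Dis3 cKO (3.39, edgeR adjusted p 0.0253) and did not pass with the tag as a block (limma adjusted p 0.750). What these genes share was not tested.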
